A study of Mus musculus with 36 samples.

Results

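The genes described here are 10 macrophage genes, picked by symbol from the 55487 genes of the count table. Ccr2, Ly6c2, Chil3, Arg1 and Clec4n mark monocytes and macrophages that enter tissue from blood, and Ms4a7, Mrc1, Cd163, Lyve1 and Pf4 mark macrophages that live at the borders of nervous tissue, in the meninges and around vessels. All 10 symbols were found once each. Their levels were followed in all 36 libraries, by tissue, treatment and time.

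Nervous tissue holds microglia in its parenchyma and border-associated macrophages in its coverings. After injury, blood monocytes that carry the chemokine receptor CCR2 can enter, and there they turn into macrophages that take up debris such as myelin. Monocytes fresh from blood carry Ly6C and CCR2, and macrophages with a so-called alternatively activated profile make arginase 1 (Arg1), the chitinase-like protein 3 (Chil3, also Ym1) and C-type lectins. Border macrophages are usually told from microglia by the mannose receptor (Mrc1), the haemoglobin scavenger receptor (Cd163), the hyaluronan receptor LYVE1, the tetraspan protein MS4A7 and the chemokine PF4. None of the 10 belongs to a single cell type in every setting. Lyve1 is also a gene of lymphatic endothelium, Pf4 of platelets, Ly6c2 has a close relative in blood endothelium, and Arg1 is also made by some epithelia.

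Bulk RNA-seq was made from the unmyelinated optic nerve at the nerve head (UON), the myelinated optic nerve behind it (MON) and the whole retina of C57BL/6 mice, 12 libraries for each tissue. The mice, 2 to 4 months old, were naïve, or had optic nerve crush 3 D or 2 W earlier (D, days; W, weeks), or had microbeads injected into the anterior chamber 3 D, 2 W or 6 W earlier to raise eye pressure, a glaucoma model. The naïve mice had neither procedure. Each group of each tissue consisted of 1 library of pooled RNA from 2 females and 1 from 2 males, which makes 18 groups with n = 2 pools. Differences between mice and between sexes cannot be told apart within a group, and the same mice gave the 3 tissues. The controls were untreated mice, not the other eyes of the injured mice.

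Libraries held about 16159000 to 78054000 estimated counts, where a pair of reads adds about 4 counts. The shallow naïve MON library, from the male pool, held 17758000 counts, and that of the female pool 78054000. Expression of Xist and of 4 Y chromosome genes matched the labelled sex in 36 of 36 libraries. Myelin basic protein (Mbp) lay between 30542 and 110300 CPM (counts scaled to library size) in the 12 MON libraries, between 1910 and 27929 CPM in UON and between 33.6 and 69.3 CPM in retina. In MON, the male pool at 2 W and the female pool at 6 W after microbeads stood apart: 14 genes of surface epithelium, among them Krt15 and Krt4, summed to 2769 and 3545 CPM, against 5.17 to 85.3 CPM in the other 10 MON libraries. That list was written after these genes had been seen. Fitted Arg1 changes that rest on those 2 libraries are given below with and without them. Correlations, orders of levels and fits over all groups include them.

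By the deposited GRCm38 coordinates, Ccr2 lies on chromosome 9 at 124101950 to 124113557, Ly6c2 on chromosome 15 at 75108158 to 75111970, Chil3 on chromosome 3 at 106147554 to 106167564, Arg1 on chromosome 10 at 24915221 to 24927484 and Clec4n on chromosome 6 at 123229843 to 123247021. Ms4a7 lies on chromosome 19 at 11321039 to 11336146, Mrc1 on chromosome 2 at 14229392 to 14332057, Cd163 on chromosome 6 at 124304656 to 124330527, Lyve1 on chromosome 7 at 110850607 to 110863239 and Pf4 on chromosome 5 at 90772435 to 90773383. Counts were not split by strand. Only Mrc1 overlaps another annotated gene, the microRNA gene Mir511 on the same strand. Of all stretches of 150 bases in the transcripts of each gene, 1.42% of those of Ly6c2 also occur in Ly6c1, an endothelial gene that lay at 13.9 to 119 CPM across all libraries. For 8 of the other genes no stretch was shared. Ly6c2 values are therefore uncertain by the reads that it shares with Ly6c1.

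RefSeq promoters of build GRCm38.p6, 250 bases before to 50 bases after a start site, were at hand for 7 of the 10 genes. The 4 below are those of the genes with an entry that were called higher in MON 3 D after crush, and they are shown because their transcripts rose together. They cover chr9:124101933-124102232 on the plus strand (Ccr2), chr3:106167515-106167814 on the minus strand (Chil3), chr19:11336097-11336396 on the minus strand (Ms4a7) and chr5:90772185-90772484 on the plus strand (Pf4). Capitals mark matches, on either strand, to short core motifs of PU.1 (GGAAGT), C/EBP (TTGCNNAA), AP-1 (TGANTCA) and STAT6 (its palindromic site with a 4-base spacer), factors known from macrophages.
Ccr2: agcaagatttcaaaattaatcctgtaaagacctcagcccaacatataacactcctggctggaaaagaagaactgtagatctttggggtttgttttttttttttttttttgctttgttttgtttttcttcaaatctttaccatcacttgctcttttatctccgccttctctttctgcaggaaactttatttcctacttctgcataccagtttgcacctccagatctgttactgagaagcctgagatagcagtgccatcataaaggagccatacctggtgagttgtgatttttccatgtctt
Chil3: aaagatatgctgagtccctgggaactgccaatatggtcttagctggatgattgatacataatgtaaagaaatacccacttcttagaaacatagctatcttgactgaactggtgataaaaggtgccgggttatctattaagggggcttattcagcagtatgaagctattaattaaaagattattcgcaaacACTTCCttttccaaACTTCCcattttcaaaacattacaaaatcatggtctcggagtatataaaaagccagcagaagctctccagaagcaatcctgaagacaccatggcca
Ms4a7: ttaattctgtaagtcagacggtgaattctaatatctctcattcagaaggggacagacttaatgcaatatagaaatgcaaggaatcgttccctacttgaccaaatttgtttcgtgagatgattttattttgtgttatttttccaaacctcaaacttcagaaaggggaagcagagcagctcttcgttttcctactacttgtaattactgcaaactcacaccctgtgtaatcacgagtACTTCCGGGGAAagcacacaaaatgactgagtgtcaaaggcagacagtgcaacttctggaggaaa
Pf4: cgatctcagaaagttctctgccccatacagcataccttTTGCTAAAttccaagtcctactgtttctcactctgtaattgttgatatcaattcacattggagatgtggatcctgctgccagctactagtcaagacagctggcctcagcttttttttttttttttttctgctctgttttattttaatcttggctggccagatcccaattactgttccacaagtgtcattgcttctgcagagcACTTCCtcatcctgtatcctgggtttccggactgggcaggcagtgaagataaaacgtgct

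The PU.1 letters occur in the promoters of 5 of the 7 genes (Chil3, Ly6c2, Mrc1, Ms4a7 and Pf4), at 2 places in that of Chil3, and in 23.7% of 32544 promoters of the same length. The C/EBP letters occur in that of Pf4 alone (10.8% of all promoters). The STAT6 letters occur in that of Ms4a7 (6.98%), where they overlap the PU.1 match within the single run of capitals. The AP-1 letters are in none of the 4 windows shown and in an alternative Ms4a7 promoter (7.79%). The Ccr2 window holds none of the 4 motifs. These matches describe letters, not binding.

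**Figure D1:**
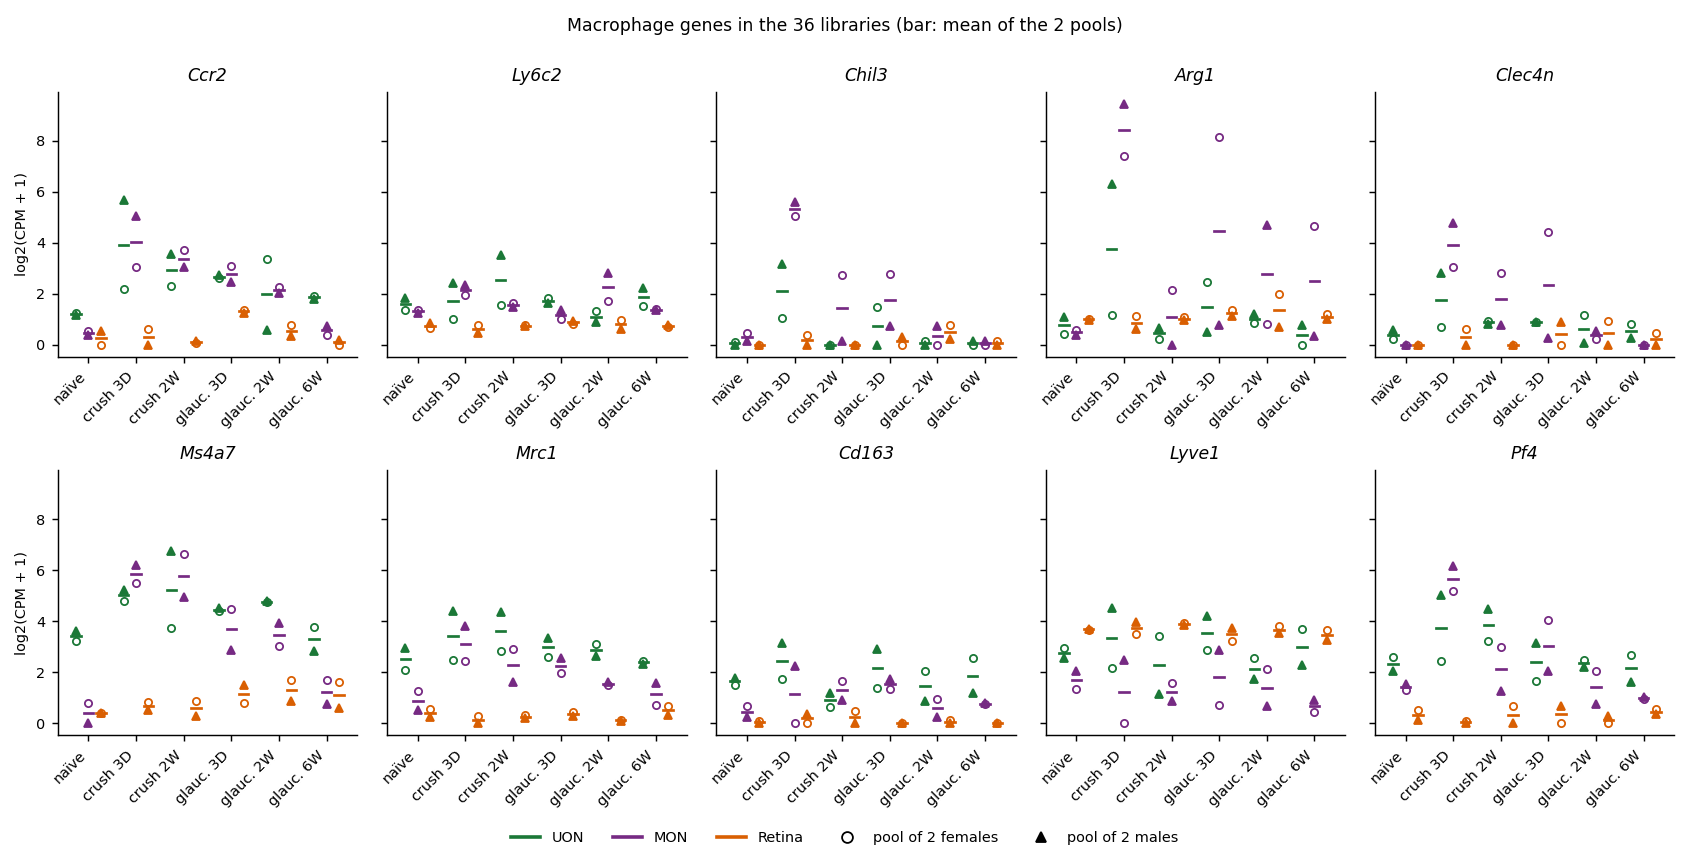
Level of each gene as log2(CPM + 1), with each of the 36 libraries as a point, by treatment and time (x axis); colours give the tissue, open circles female pools, filled triangles male pools, and bars the mean of the 2 pools. Chil3 and Pf4 in MON 3 D after crush stood above every other group, and Lyve1 alone was high in all 12 retina libraries.

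In naïve mice, border genes were measurable in UON, low in MON and near 0 in retina, with Lyve1 as the exception. Ms4a7 stood at 8.36 and 11.5 CPM in naïve UON (female and male pool), 0.748 and 0 in MON, and 0.330 and 0.332 in retina. Mrc1 stood at 3.32 and 6.83 CPM in UON, 1.38 and 0.421 in MON, and 0.466 and 0.177 in retina. Pf4 stood at 5.08 and 3.20 CPM in UON, 1.46 and 1.92 in MON, and 0.427 and 0.0885 in retina. For all 3 genes both UON pools lay above every naïve MON and retina pool. Against retina this order held for 6 of the 8 genes tested and for 36.3% of all genes. Cd163 reached 1.84 and 2.46 CPM in UON and 0.589 and 0.180 in MON, and the 2 naïve retina libraries together held 3 counts of it. In bulk tissue, fewer cells of a type and less RNA per cell cannot be told apart.

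Against retina, 4 of the 10 genes were called higher in naïve UON, a call being a fold change of more than 1 on the log2 scale with an adjusted p below 0.05. Of the 23685 genes tested, 18.2% were called in that direction and 31.7% in either. Lyve1 alone had both UON pools below both retina pools, an order of 41.3% of genes. Ms4a7 was higher by a log2 fold change of 4.92 (SE 1.17, adjusted p = 0.0154), Mrc1 by 4.15 (SE 0.989, adjusted p = 0.0155) and Pf4 by 4.08 (SE 0.930, adjusted p = 0.0128). Cd163 was called as well (adjusted p = 0.0189), with a fold change that rests on the 3 retina counts. Chil3 and Clec4n did not pass the filter on low counts in the naïve libraries, so 8 genes were tested. Without the male UON pool only Pf4 was called, and without the male retina pool only Ms4a7. Fibroblast genes of meninges and sclera moved in the same direction, 9 of 10 called higher in UON than in retina, and their summed level in the 12 libraries of each tissue was 1795 to 6060 CPM in UON, 433 to 1702 in MON and 34.4 to 57.6 in retina. Their part in the difference was not tested. All 12 listed genes of resting microglia and all 12 shared by macrophages and microglia were also called higher in UON than in retina.

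Between the nerve regions, 6 genes (Ccr2, Ms4a7, Mrc1, Cd163, Lyve1 and Pf4) had both naïve UON pools above both naïve MON pools, an order that 26.6% of the genes tested also had, and none was called, where 4.83% of genes were called higher, 4.8% lower and 9.63% in either direction. The nearest was Ms4a7, at a log2 fold change of 4.83 (SE 1.21, adjusted p = 0.0501). It was called when any of the 4 libraries was left out and by DESeq2 (log2 fold change 5.05, adjusted p = 2.05e-05). Of the genes of recruited cells, Ccr2 stood at 1.34 and 1.27 CPM in naïve UON and 0.462 and 0.301 in MON, and Ly6c2 at 1.59 and 2.56 in UON and 1.61 and 1.38 in MON. Arg1, Chil3 and Clec4n were at 1.12 CPM or less in every naïve nerve library, and both MON libraries held 0 counts of Clec4n.

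In MON 3 D after crush, genes of infiltrating macrophages rose from near the limit of detection to levels among the largest changes of the tissue. Arg1, which turns arginine into ornithine and urea, stood at 166 and 697 CPM (female and male pool) against 0.509 and 0.301 in naïve MON. Chil3 stood at 32.4 and 48.0 CPM against 0.398 and 0.120. Clec4n, which encodes the sugar-binding receptor dectin-2, stood at 7.30 and 26.5 CPM against 0 and 0. Both injured pools were above both naïve pools for each gene, and the male pool was the higher one each time. Ccr2, the receptor by which monocytes leave the marrow and enter inflamed tissue, stood at 7.24 and 31.9 CPM against 0.462 and 0.301. Ly6c2, which encodes the Ly6C of classical monocytes, stood at 2.92 and 4.02 CPM against 1.61 and 1.38, without overlap but with a small difference.

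Of the 10 genes, 6 were called higher in MON at 3 D, and 3.61% of the 19988 genes tested were. No gene of the 10 was called lower (0.655% of genes, 4.26% in either direction). Both injured pools were above both naïve pools for 8 of the 10, an order of 24.8% of genes, and for none were both below (29.6%). All 10 passed the count filter in this fit, but 6 of them (Ccr2, Chil3, Arg1, Clec4n, Ms4a7 and Cd163) reached its minimum in both pools of a group only after crush. Genes kept through the group where they are high had to differ, so these counts are a description of the 10 and no support for a shared change. Arg1 rose by a log2 fold change of 10.33 (SE 1.80, adjusted p = 0.0255), from 0.405 ± 0.148 to 432 ± 375 CPM (SD, n = 2). Chil3 rose by 8.0 (SE 1.43, adjusted p = 0.0276) and Ccr2 by 5.53 (SE 0.849, adjusted p = 0.0178). These folds are uncertain in size, since both naïve pools together held 37 counts of Arg1, 27 of Chil3 and 34 of Ccr2. With 1 library left out they ran from 7.80 to 13.7 for Arg1, 5.94 to 10.9 for Chil3 and 4.00 to 6.86 for Ccr2. Clec4n was called (adjusted p = 0.0281), and its mean of 16.9 CPM was at least 112-fold higher than the naïve level, taking 12 counts over both naïve libraries (3 pairs of reads) as the limit that counts of 0 allow. Ly6c2 was not called (log2 fold change 1.29, SE 0.647, adjusted p = 0.306).

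Among the border genes, those called higher in MON at 3 D were Ms4a7 and Pf4. Ms4a7 stood at 44.1 and 73.7 CPM against 0.748 and 0 in naïve MON, a log2 fold change of 7.47 (SE 0.956, adjusted p = 0.0122). That fold rests on 47 naïve counts and ran from 6.22 to 13.5 with 1 library left out. Pf4 stood at 35.6 and 70.4 CPM against 1.46 and 1.92, a log2 fold change of 5.10 (SE 0.810, adjusted p = 0.0199). Mrc1 stood at 4.44 and 12.9 CPM against 1.38 and 0.421, above the naïve pools without being called (log2 fold change 3.58, SE 0.930, adjusted p = 0.0801), while DESeq2 called it (3.59, adjusted p = 0.000328). Cd163 stood at 0 and 3.81 CPM and Lyve1 at 0 and 4.63 CPM, with the naïve pools between the injured ones. Neither of these 2 was called, at log2 fold changes of 2.16 (SE 2.23, adjusted p = 0.647) and -0.52 (SE 1.61, adjusted p = 0.897). Scaled for length, mean levels in MON at 3 D ran from 243 ± 207 FPKM (StringTie's length-scaled unit; SD, n = 2) for Arg1 over 74.8 ± 32.3 for Pf4, 42.1 ± 16.05 for Ms4a7, 22.9 ± 5.01 for Chil3 and 11.5 ± 9.14 for Clec4n to 3.97 ± 0.278 for Ly6c2, 3.47 ± 2.54 for Ccr2, 1.33 ± 0.890 for Mrc1, 0.695 ± 0.983 for Lyve1 and 0.454 ± 0.642 for Cd163.

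The 6 calls depended on the naïve libraries and on the samples in the fit. With all MON groups in the fit, 4 of the 6 were called, and Arg1 (adjusted p = 0.0826) and Clec4n (adjusted p = 0.0502) were not. Without the female naïve pool none of the 10 was called, and without the male naïve pool only Ms4a7. Without the female crush pool 8 were called (Mrc1 and Cd163 as well) and without the male crush pool the same 6.

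**Figure D2:**
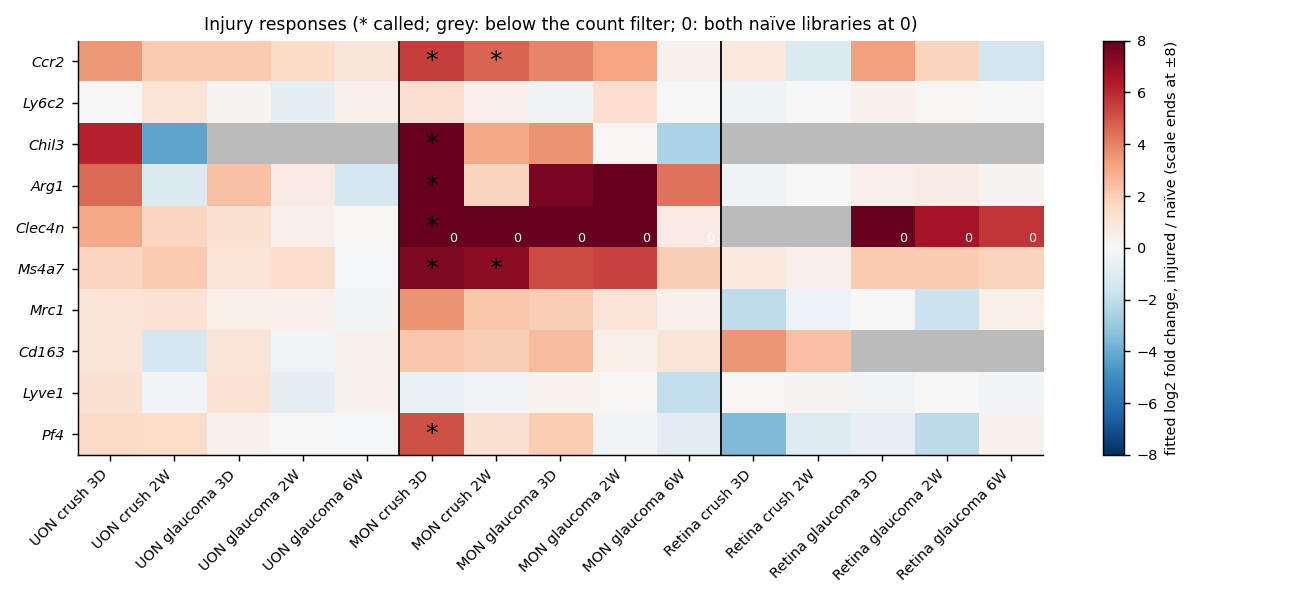
Fitted log2 fold change of each gene (rows) against naïve tissue in the 15 comparisons (columns), red for higher and blue for lower; stars mark calls, grey marks genes below the count filter, and a 0 marks pairs whose naïve libraries held no count, so that the colour is no measure of size. All 8 stars are in MON after crush, 6 at 3 D and 2 at 2 W.

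Other genes of the macrophage response were read from lists beside the 10. Of the ligands and growth factors that call monocytes in, 2 of 7 were called higher in MON at 3 D, the CCR2 ligands Ccl2 (log2 fold change 5.36) and Ccl7 (5.09). Ccl2 stood at 33.2 and 55.3 CPM against 0.764 and 1.62. Of 18 further genes of recruited monocytes and macrophages, 8 were called higher, with the largest changes in thrombospondin 1 (Thbs1, 8.32), lysozyme (Lyz2, 5.34), Gda (4.63) and Tgfbi (3.27), and the median over the list was 2.77 on the log2 scale against -0.0049 over all genes. Of 14 further border genes 7 were called higher (median 3.90 over the 12 tested), led by the sialic acid receptor Siglec1 (6.69), the fatty acid receptor Cd36 (5.80), the transglutaminase F13a1 (5.35) and Igf1 (4.51). Of 14 genes of alternative activation 4 were (median 2.99 over the 13 tested): Egr2 (3.66), Socs3 (2.99), the IL-4 receptor chain Il4ra (2.90) and Tgm2 (1.60). None of these lists had a gene called lower.

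Of 10 macrophage transcription factors, 4 were called higher in MON at 3 D, among them Runx1 (2.50), Spi1, which encodes PU.1 (2.06), and Irf8 (1.65). Of 12 genes that macrophages and microglia share, 5 were, among them the lysosomal Cd68 (3.99), F4/80 (Adgre1, 3.41), Itgam (2.69) and Fcer1g (2.60). Of 12 genes of resting microglia only Fcrls (4.18) was called, with a median of 0.12 over the list. Of 10 genes of dividing cells 9 were called higher, led by Ccnb2 (6.53), Cdk1 (6.01), Mki67 (5.98) and Top2a (5.68).

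Markers of other cells that carry some of the 10 genes gave the following values in MON at 3 D. The neutrophil gene Ly6g had no count in any of the 12 MON libraries, Camp was at no more than 0.179 CPM there, and S100a8 reached 4.09 and 8.52 CPM against 0 and 0.541 in naïve MON. Of the 10 neutrophil genes listed, Mmp8 was called (7.26), the median log2 fold change was 4.58 over the 6 tested, and the list summed to 22.4 to 128 CPM over the MON libraries. The 6 platelet genes listed, relevant to Pf4, summed to 8.53 and 7.79 CPM after crush and 15.5 and 10.5 CPM in naïve MON, and none was called. The 5 haemoglobin and red cell genes summed to 765 and 1547 CPM against 593 and 484, and none was called. Of 12 lymphocyte genes none was called, of 8 dendritic cell genes Itgax alone (3.69), and none of those for lymphatic endothelium, blood endothelium or fibroblasts. Over all genes 3.61% were called higher, so lists this short can lack a call without being unchanged. Their median log2 fold changes were -0.20, 1.74, 1.13, 0.90 and 0.08 in that order. Those of the platelet and red cell lists were -0.40 and 1.26, and that over all genes -0.0049. The part of any of these cells in the results was not tested.

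At 2 W after crush the levels of Arg1, Chil3, Clec4n and Pf4 in MON were below those at 3 D, with no gene of the 10 called between the times by edgeR. Arg1 stood at 3.47 and 0 CPM (female and male pool), Chil3 at 5.67 and 0.123, Clec4n at 5.99 and 0.736, and Pf4 at 6.87 and 1.38. For each of these 4 genes, and for Ly6c2, both pools were below both 3 D pools, an order of 23.5% of genes. Ms4a7 stood at 97.97 and 29.8 CPM and Ccr2 at 12.3 and 7.17 CPM, with the 3 D and 2 W pools overlapping for both. Mrc1 stood at 6.55 and 2.08 CPM, Cd163 at 2.21 and 0.889, Ly6c2 at 2.08 and 1.81, and Lyve1 at 2.02 and 0.828.

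Against naïve MON, 2 of the 10 were called at 2 W, where 2.13% of genes were called higher. Ms4a7 rose by a log2 fold change of 7.18 (SE 0.931, adjusted p = 0.0194) and Ccr2 by 4.63 (SE 0.805, adjusted p = 0.0366). With 1 library left out these folds ran from 6.20 to 13.3 and from 3.44 to 5.46. The mean of Clec4n, 3.36 CPM, was at least 22.3-fold higher than naïve but not called (adjusted p = 0.0698). Leaving out either naïve pool ended both calls, and leaving out the male or the female crush pool gave 7 and 4 calls, of which 1 (Arg1 without the female pool) was lower than naïve. The order of both pools above both naïve pools held for 6 genes (Ccr2, Ly6c2, Clec4n, Ms4a7, Mrc1 and Cd163) and for 24.1% of all genes. The fit was that used at 3 D, so 6 of the 10, Ms4a7 and Ccr2 among them, again passed the filter only through the crush pools. These counts too are a description and no support for a shared change. Among the lists, 9 of 12 genes shared by macrophages and microglia were called higher at 2 W, 6 of 10 transcription factors, 5 of 18 genes of recruited cells, 4 of 14 border genes, 4 of 10 genes of dividing cells, 3 of 14 genes of alternative activation, 3 of 12 genes of resting microglia and none of the 7 ligands and growth factors. Their medians on the log2 scale were 2.31, 1.87, 1.79, 2.05, 1.89, 1.83, 0.80 and 0.36 in that order, and 0.051 over all genes.

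Compared directly, no gene of the 10 was called between 2 W and 3 D in MON by edgeR, as few genes were in all (0.075% of 19988, with 2493 at an unadjusted p under 0.05). The log2 difference, 2 W minus 3 D, was -8.55 for Arg1 (adjusted p = 0.116), -4.98 for Chil3 (adjusted p = 0.181) and -3.86 for Pf4 (adjusted p = 0.120). DESeq2 called all 3 (adjusted p = 0.0289, 0.0337 and 1.31e-07), and so did the edgeR fit when any of the 4 libraries compared was left out. For Ms4a7 and Ccr2 the differences were -0.29 (adjusted p = 0.917) and -0.90 (adjusted p = 0.680).

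The response to crush was then compared between tissues, as the difference between the log2 fold change in MON and that in retina of the same mice. At 3 D it was called for 2 genes, 10.45 for Arg1 (SE 1.78, adjusted p = 0.0356) and 6.63 for Ms4a7 (SE 1.18, adjusted p = 0.0403), where 0.697% of 25398 genes were called larger in MON. Arg1 stood at 1.16 and 0.552 CPM in retina at 3 D (female and male pool) and 1.01 and 0.973 in naïve retina. Ms4a7 stood at 0.791 and 0.429 CPM there and 0.330 and 0.332 in naïve retina. At 2 W it was called for Ms4a7 alone, at 6.57 (SE 1.17, adjusted p = 0.0423), beside 0.366% of genes. Left-out libraries ended these calls often: at 3 D the count was 0 without the male MON crush pool, the male naïve MON pool or either retina crush pool, and 4 without the female MON crush pool. At 2 W it was 1 without the male crush pool or the female naïve pool of MON and 0 without any other library.

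Between UON and MON no gene of the 10 was called as differing in its response to crush, at 3 D or 2 W, beside 0.012% and 0% of 25011 genes in either direction (1733 and 2728 at an unadjusted p under 0.05). The fitted differences, UON minus MON, were -5.21 for Ms4a7 (adjusted p = 0.389), -4.11 for Arg1 (adjusted p = 0.792) and -3.07 for Pf4 (adjusted p = 0.665) at 3 D. DESeq2 called Clec4n at both times (adjusted p = 0.0171 and 0.0141), a gene with no count in naïve MON.

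In UON after crush the pools disagreed. At 3 D the male pool held 78.5 CPM of Arg1, 50.2 of Ccr2, 31.4 of Pf4, 8.03 of Chil3 and 6.10 of Clec4n. The female pool held 1.24 CPM of Arg1, 3.53 of Ccr2, 4.51 of Pf4, 1.09 of Chil3 and 0.622 of Clec4n. Of these genes, all but Pf4 had both pools above both naïve pools, as had Ms4a7 at 26.8 and 36.8 CPM. This order, for 5 of the 10 genes, was shared by 17.7% of the 21368 genes tested. Chil3 and Clec4n passed the count filter only through the crush pools, here and at 2 W, so such counts are a description. None of the 10 was called, as no gene was in the whole table (657 had an unadjusted p under 0.05). DESeq2 called Arg1 (log2 fold change 4.53, adjusted p = 4.75e-05) and Ccr2 (3.49, adjusted p = 0.00126), and without the female pool edgeR called Arg1 (6.11, adjusted p = 0.0134). The male pool also held more fibroblast RNA, 6060 CPM over 10 genes against 2823 in the female pool and 2847 and 2980 in naïve UON, and its part in the difference was not tested.

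At 2 W after crush the male UON pool held 106 CPM of Ms4a7, 21.6 of Pf4, 19.6 of Mrc1, 10.7 of Ccr2 and 10.5 of Ly6c2. The female pool held 12.4, 8.40, 6.18, 3.93 and 1.95 CPM of the same genes. For Ms4a7, Pf4, Ccr2 and Clec4n both pools were above both naïve pools, an order of 20.2% of genes. Cd163, at 0.556 and 1.3 CPM, was below both naïve pools (1.84 and 2.46 CPM), an order of 24.2% of genes. Arg1 (0.171 and 0.582 CPM, female and male pool) and Chil3 (0 and 0) were not above naïve UON. None was called against naïve UON (0.0281% of genes in either direction, 1980 at an unadjusted p under 0.05). DESeq2 called Ms4a7 (log2 fold change 2.11, adjusted p = 0.0344). The male pool carried 5183 CPM of the 10 fibroblast genes and 3787 CPM of the 5 red cell genes, against 2294 and 4861 CPM in the female pool, and its part of the difference was not tested. Between 2 W and 3 D in UON, the log2 difference of Arg1 was -5.64 (adjusted p = 0.506), not called by edgeR, which called 0.00468% of genes, and called by DESeq2 (-5.59, adjusted p = 1.27e-07).

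After microbead injection, the high MON values of Arg1, Clec4n, Pf4 and Chil3 at 3 D were in the female pool alone. That pool held 283 CPM of Arg1, 20.5 of Clec4n, 15.5 of Pf4 and 5.88 of Chil3, levels within or near the range of MON 3 D after crush for Arg1 and Clec4n. The male pool held 0.714, 0.211, 3.15 and 0.649 CPM of these. Ccr2 (7.60 and 4.56 CPM, female and male pool) and Ms4a7 (21.5 and 6.36) were above naïve MON in both pools. Over all 10 genes, 8 had both pools above both naïve pools, an order shared by 18% of the 22960 genes tested, and none was called, as no gene was at any time in this fit. In this fit, at every time, 4 genes (Chil3, Clec4n, Ms4a7 and Cd163) passed the count filter only through the microbead pools. The counts of genes above naïve MON are therefore a description and no support for a shared change. Without the male pool Arg1 differed from naïve MON by 9.16 on the log2 scale and without the female pool by 1.13, so that 1 library decides the value. DESeq2 called Ccr2 (3.94, adjusted p = 1.61e-05) and Ms4a7 (5.35, adjusted p = 3.96e-06). The female pool also stood apart in dividing cell genes, 434 CPM over 10 genes against 142 in the male pool.

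At 2 W and 6 W after microbeads Arg1 was high in 1 MON pool each, 25.3 CPM in the male pool at 2 W and 24.1 CPM in the female pool at 6 W, against 0.774 and 0.271 CPM in the other pool of the time. These are the 2 libraries with surface epithelium RNA. Clec4n stood at 0.470 and 0 CPM in them, and Chil3 at 0.659 and 0. The ratio of mean Arg1 levels to naïve MON was 32.2 at 2 W and 30.1 at 6 W, and the fitted log2 fold change at 2 W, 8.49, is above what that ratio gives. Without these libraries the fitted value went to -0.16 at 2 W, and from 4.31 to 0.02 at 6 W. The part of epithelium in these Arg1 values was not tested.

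**Figure D3:**
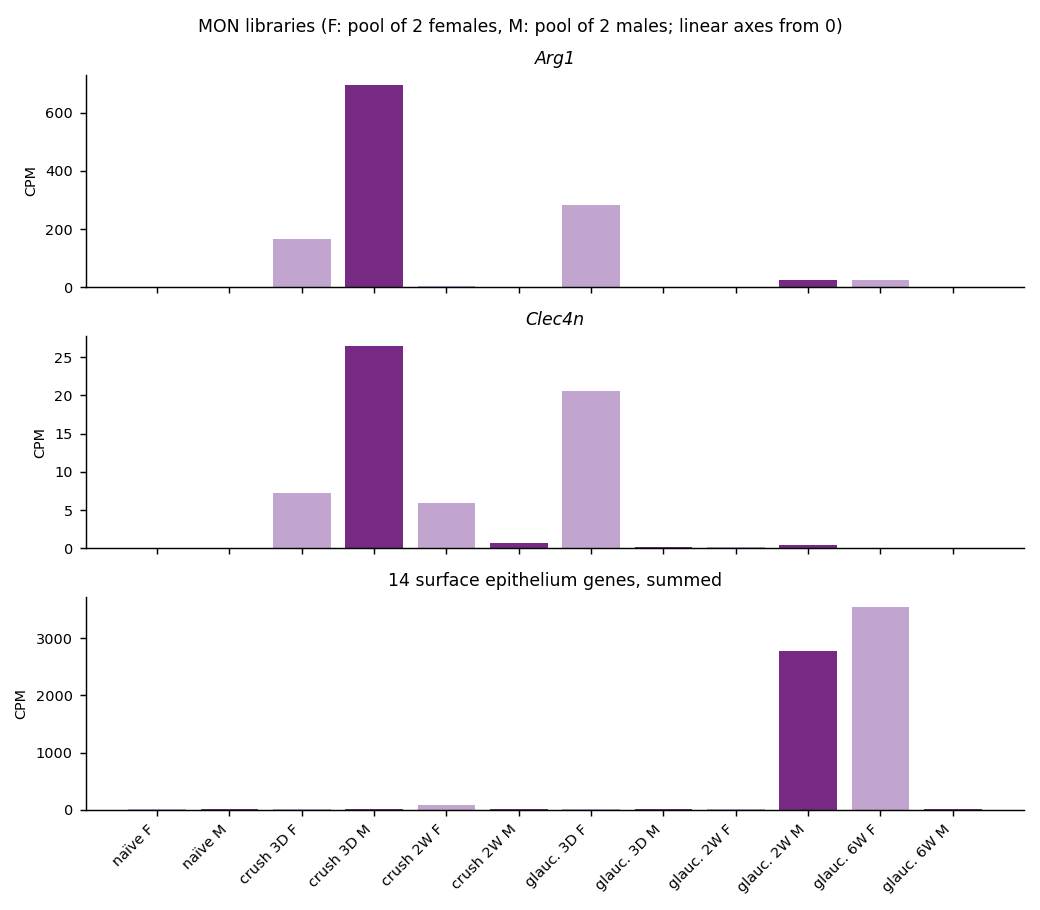
Arg1, Clec4n and the sum of 14 surface epithelium genes in the 12 MON libraries, as CPM on linear axes, with pale bars for female and dark bars for male pools. Arg1 and Clec4n were high together in both pools 3 D after crush and in the female pool 3 D after microbeads, and Arg1 without Clec4n was high in the 2 libraries with 2769 and 3545 CPM of epithelium genes.

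In MON at 2 W after microbeads, 6 of the 10 genes (Ccr2, Ly6c2, Arg1, Clec4n, Ms4a7 and Mrc1) had both pools above both naïve pools, an order of 20% of genes. Ly6c2 stood at 2.28 and 5.98 CPM (female and male pool). Ms4a7 stood at 7.19 and 14.2 CPM and Ccr2 at 3.78 and 3.08. DESeq2 called these 2 genes (5.60 on the log2 scale, adjusted p = 8.74e-07, and 3.13, adjusted p = 0.00172), and edgeR called neither (5.43, adjusted p = 0.293, and 3.13, adjusted p = 0.293). A fit without the female pool at 2 W rests on the male pool, which is among the libraries with surface epithelium RNA. That pool held 25.3 CPM of Arg1 and 20 counts of Clec4n, against 0.774 CPM and 4 counts in the female pool. At 6 W Ms4a7 (2.27 and 0.678 CPM) and Ccr2 (0.308 and 0.678) overlapped or touched the naïve range, and Pf4 (0.924 and 1.03) was below both naïve pools, as were Chil3 (0 and 0.0968) and Lyve1 (0.379 and 0.890), an order of 19.5% of genes. Cd163 (0.687 and 0.736) was above both (20.3% of genes).

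In UON after microbeads, Ms4a7 stood at 20.1 and 21.7 CPM at 3 D (female and male pool), 25.8 and 26.6 at 2 W and 12.6 and 6.14 at 6 W, beside 8.36 and 11.5 in naïve UON. It was above both naïve pools at 3 D and 2 W, an order of 16.6% and 16.5% of genes, and overlapped them at 6 W. Ly6c2 and Lyve1 were below both naïve pools at 2 W (18.7% of genes). Ccr2 stood at 5.07 and 5.59 CPM at 3 D, 9.17 and 0.516 at 2 W and 2.78 and 2.48 at 6 W. None of the 9 genes that passed the filter was called at any time, in a fit that called no gene at all (868, 801 and 451 at an unadjusted p under 0.05). DESeq2 called none of the 10 in UON after microbeads.

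Crush and microbeads were also compared with each other at 3 D and 2 W, and no gene of the 10 was called in any tissue, where 0.0162% and 0.0485% of 24738 genes were in MON (2562 and 1857 at an unadjusted p under 0.05). The shares at 3 D and 2 W were 0% and 0.0418% in UON and 0.0081% and 0.113% in retina. In MON at 3 D, Ly6c2, Chil3, Ms4a7 and Pf4 had both crush pools above both microbead pools, an order of 17.4% of genes. DESeq2 called Pf4 (log2 difference 3.04, adjusted p = 0.00729), and edgeR gave 2.98 (adjusted p = 0.357). In MON at 2 W the difference was 2.2 for Ms4a7 (adjusted p = 0.554) and 1.54 for Ccr2 (adjusted p = 0.664). Both crush pools were above both microbead pools for Ms4a7, Ccr2, Clec4n and Mrc1, an order of 18.4% of genes. For Ly6c2 both crush pools were below both microbead pools (20.3% of genes).

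The retina gave no called change for any of the 10 genes after either injury, and for most of them there was little to measure. Over all genes, 0.0221% and 0.313% were called at 3 D and 2 W after crush, and 0.00429%, 0% and 0.00858% at 3 D, 2 W and 6 W after microbeads. Clec4n and Cd163 had no count in 8 of the 12 retina libraries, Chil3 in 7, Pf4 in 4 and Ccr2 in 3. Ccr2 reached 1.58 and 1.38 CPM at 3 D after microbeads (female and male pool) against 0 and 0.442 in naïve retina, a log2 fold change of 3.28 (adjusted p = 0.867). Arg1 stayed between 0.552 and 3.00 CPM and Ms4a7 between 0.225 and 2.28 CPM. Ms4a7 was above both naïve retina pools (0.330 and 0.332 CPM) in both pools at each time after microbeads, at 0.734 and 1.85 CPM at 3 D, 2.28 and 0.824 at 2 W and 2.08 and 0.502 at 6 W. That order held for 3, 1 and 1 of the 8 genes tested at the 3 times and for 18%, 21.2% and 21.1% of all genes. Of these 8, Ccr2, Clec4n, Mrc1 and Pf4 passed the count filter only through the microbead pools, so the counts are a description. Both pools were below naïve retina for Mrc1 at 2 W (18.1% of genes) and for Lyve1 at 6 W (21.9%). After crush, Ms4a7 was also above both naïve pools at 3 D (18% of genes) and Pf4 below them (20.7%). At 2 W after crush Lyve1 was above them (23.2%). The log2 fold changes of Ms4a7 at the 3 times after microbeads were 2.08, 2.09 and 1.79 (adjusted p = 0.808, 0.782 and 0.865). Apart from Lyve1, levels this low allow no firm statement on changes in retina. DESeq2 called Clec4n at each time after microbeads from at most 46 counts in a group.

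Lyve1 ran against the other border genes in its retina level. Within naïve nerve it had their order, both UON pools above both MON pools (26.6% of genes). Lyve1 lay between 8.39 and 14.8 CPM in all 12 retina libraries, with a median of 11.9. It lay between 1.22 and 21.8 CPM in UON and between 0 and 6.36 CPM in MON. Naïve MON (1.51 and 3.19 CPM, female and male pool) was below naïve retina (11.7 and 12.1 CPM) at a log2 fold change of -2.39 (SE 0.528, adjusted p = 0.0127), a direction in which 10.9% of genes were called (27.6% in either). Without the female naïve MON pool this was not called (adjusted p = 0.0593). Pf4 was the only gene of the 10 called higher in naïve MON than in retina (log2 fold change 2.94, SE 0.918, adjusted p = 0.0484), beside 16.7% of genes, and was not called without the male pool of either tissue. Mrc1, Cd163 and Pf4 in retina stayed at or under 0.623 CPM, and Ms4a7 at or under 2.28 CPM. Prox1, a lymphatic endothelium gene that retinal neurons and glia also use, lay between 60.1 and 109 CPM in retina.

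**Figure D4:**
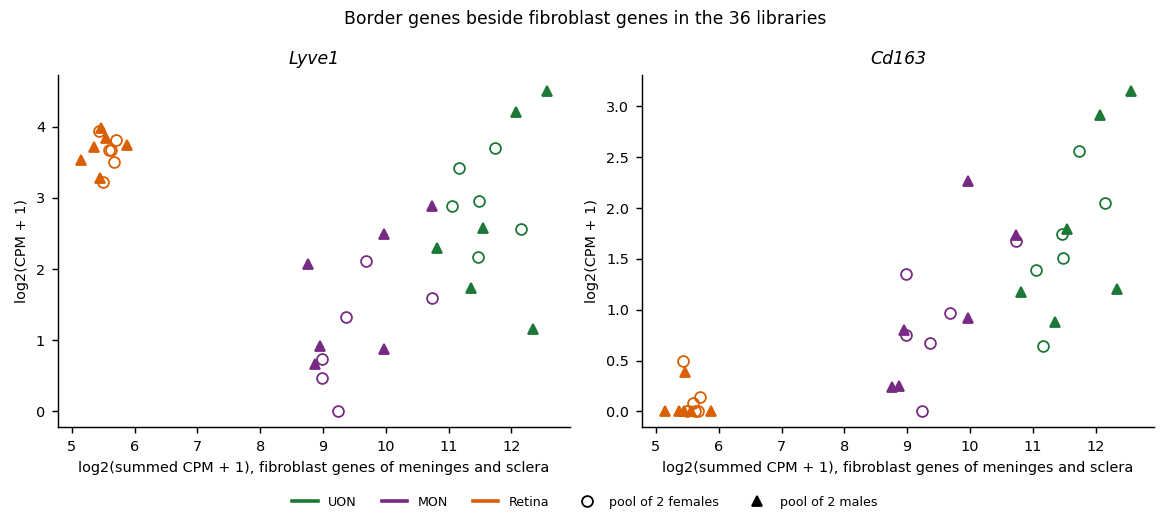
Lyve1 (left) and Cd163 (right) as log2(CPM + 1) against the summed level of 10 fibroblast genes of meninges and sclera as log2(CPM + 1), with 1 point for each of the 36 libraries, coloured by tissue. Over the 24 nerve libraries both genes were higher where fibroblast RNA was higher, though r for Lyve1 within UON alone was 0.25. In retina Lyve1 was high at fibroblast sums of 34.4 to 57.6 CPM.

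The 10 genes were compared over the 24 nerve libraries by the correlation of log2(CPM + 1). This is a description, since the libraries share mice, depth and dissection. Arg1, Chil3 and Clec4n went together (Pearson r = 0.82 to 0.89), and Clec4n also with Pf4 (0.81). Ms4a7 went with Mrc1 (0.77) and with Ccr2 (0.77). Ccr2 also went with Clec4n and Pf4 (0.76 each) and with Mrc1 (0.75). Pf4 went with Chil3 (0.75) and Mrc1 (0.72) as well, so the genes did not form separate sets. Cd163 went with Lyve1 (0.76), and these with the summed fibroblast genes (0.71 and 0.72), as did Mrc1 (0.78). Within UON alone the r of Lyve1 with the fibroblast genes was 0.25 and within MON 0.57. In UON it was 0.82 for Mrc1, 0.81 for Pf4, 0.72 for Ccr2, 0.69 for Ms4a7, and 0.67 for Cd163 and Clec4n. The link to fibroblast genes was thus not particular to Cd163, Lyve1 and Mrc1. Lyve1 had r = -0.25 with Arg1 and -0.12 with Chil3. Ly6c2 reached no more than 0.50 with any other gene of the 10.

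**Figure D5:**
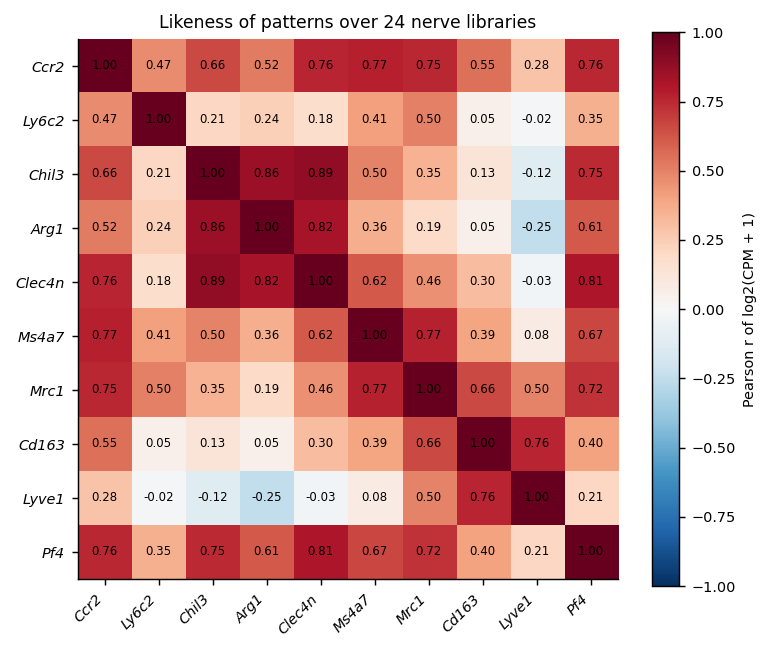
Pearson correlation of log2(CPM + 1) between the 10 genes over the 24 nerve libraries, from blue (-1) to red (1), with r written in each cell. The highest r are those between Arg1, Chil3 and Clec4n, and Cd163 is most like Lyve1.

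Among 15940 genes with a mean of at least 1 CPM in nerve, the 3 most like each gene were picked by a fixed rule. For Ccr2 they were Cd300ld, Casp8 and Ms4a6c (r = 0.92, 0.92 and 0.89), for Chil3 Trem1, Mcm5 and Pira2 (0.93, 0.92 and 0.92) and for Clec4n the coagulation factor genes F10 and F7 and the scavenger receptor Msr1 (0.94, 0.93 and 0.93). For Arg1, F7 was again among them (0.87). For Ms4a7 they were Nfkbiz, Dram1 and Slc7a7 (0.90, 0.89 and 0.88), for Mrc1 Ninj1, Hsd3b7 and Pih1d1 (0.88 each) and for Pf4 Angptl4, Wfdc17 and Ccl2 (0.92, 0.91 and 0.89). For Cd163 they were Vsig4, Ccn2 and Mical2 (0.86, 0.84 and 0.82), for Lyve1 Ptges and Cald1 among them (0.90 and 0.84), and for Ly6c2 Gimap4, Atg5 and Atp5pb (0.85, 0.77 and 0.77).

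Ranked by mean CPM over the 18 groups, MON 3 D after crush was the highest for Chil3, Arg1, Clec4n and Pf4. It was apart from the next group, UON 3 D after crush, for Chil3 and Pf4, and overlapped the next group, MON 3 D after microbeads, for Arg1 and Clec4n. The highest means of Ccr2 and Cd163 were in UON 3 D after crush (26.9 and 5.14 CPM), those of Ly6c2 and Mrc1 in UON 2 W after crush (6.22 and 12.9 CPM), that of Ms4a7 in MON 2 W after crush (63.9 CPM) and that of Lyve1 in retina 2 W after crush (13.9 CPM). Each of these 6 top groups overlapped the next one. Of the 17 steps between neighbouring groups, the 2 pools of each lay apart at 4 steps for Ccr2 and Ms4a7, at 3 for Pf4, at 1 for Chil3, Ly6c2 and Mrc1, and at none for Arg1, Clec4n, Cd163 and Lyve1.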

How the data were processed

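Per the labels and the study's methods, total RNA of single tissues was pooled by sex, an ultra-low-input kit made the libraries, and the authors aligned read pairs to GRCm38 with HISAT2 2.2.1 and assembled them with StringTie 1.3.0 on Gencode M25. The deposited estimated counts come from StringTie's count script and are not normalized. The deposited FPKM are the authors' StringTie values, and a few values just below 0 were set to 0. Counts were tested with edgeR 4.0.16 (TMM, filterByExpr with minimum count 10 and total 15, quasi-likelihood F test, sex as a term, Benjamini-Hochberg over all genes tested), on naïve libraries, on each tissue and model, or on 2 tissues for differences in response. DESeq2 1.42.0 was an alternative. CPM use TMM factors over all 36 libraries. The edgeR steps were tested on simulated data. Tissues shared mice, so the mouse pool was a block in an alternative: female minus male deviations correlated at -0.11 to 0.22 between UON and MON and -0.18 to 0.0054 between MON and retina. The genes and lists were chosen with earlier results of these data known. Named were all 10 genes, up to 4 called genes with the largest change in each list, and the 3 nearest by correlation. A p-value here rests on the spread between pools that is left after group and sex, over all groups of a fit, with information shared across genes. A fit of 1 tissue left 2 residual degrees of freedom for crush and 3 for microbeads. A few genes that these rules pick are not reported here.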

Additional observations from a re-analysis of the deposited data

Results flagged for a closer look

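The response to crush was called as differing between MON and retina, by the test of the difference itself, for Arg1 at 3 D (10.45 on the log2 scale), for Ms4a7 at 3 D (6.63) and for Ms4a7 at 2 W (6.57). Left-out libraries ended these calls often, and none of the 3 was called in the fit over all groups. Arg1 and Ms4a7 were higher after crush in 2 of 2 MON pools at 3 D, as was Ms4a7 at 2 W. With 2 pools in each group, single libraries far from their group could not be tested for.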

How the results depend on the processing

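With 2 pools in each group, most calls rest on single libraries. Of 37 comparisons, edgeR called genes of the 10 in 6, with 17 calls in all, and no fold change of these calls changed its sign under any alternative. DESeq2 moved the number called to 3 between MON 2 W and 3 D after crush, 1 between crush and microbeads in MON at 3 D, 2 in MON 2 W and 2 in MON 3 D after microbeads, 1 in retina at each time after microbeads, 1 between UON 2 W and 3 D after crush, 1 in UON 2 W and 2 in UON 3 D after crush, 1 for UON against MON in the response to crush at each time, 4 for MON against retina in that at 3 D, and 2 for naïve UON against MON. Without the filter on low counts it was 4 between MON 2 W and 3 D after crush, 6 in MON 2 W after crush, 1 and 3 between crush and microbeads in MON at 2 W and 3 D, 1 in MON at 2 W and 1 at 3 D after microbeads, 2 and 4 for MON against retina in the response to crush at 2 W and 3 D, 4 for UON against MON at each time, and 1 for naïve UON against MON. In the fit over all groups of MON 4 of the 6 calls in MON 3 D after crush were left (Arg1, adjusted p = 0.0826, and Clec4n, adjusted p = 0.0502, were not called). In the fit over all groups it was 0 for MON against retina at 2 W and 3 D, 0 for naïve MON against retina and 1 for naïve UON against MON. Without the sex term it was 0 at 2 W and 1 at 3 D for MON against retina, and with RLE scaling 1 for naïve MON against retina. The cause of these moves was not tested.

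Leaving out 1 library at a time gave 3 to 6 calls between MON 2 W and 3 D after crush, 0 to 7 in MON 2 W and 0 to 8 in MON 3 D after crush, 0 to 3 in MON 2 W after microbeads, 0 to 1 in UON 3 D after crush, between UON 2 W and 3 D after crush and between crush and microbeads in UON at 2 W, 0 to 1 for MON against retina and for UON against MON in the response to crush at 2 W, 0 to 4 for MON against retina at 3 D, and 1 to 2, 1 to 2 and 1 to 4 for naïve MON against retina, UON against MON and UON against retina. A lone pool was assumed to vary like the other groups. With the mouse pool as a block, pairing the tissues of the same mice, the counts for MON against retina were 2 at 3 D (Arg1 9.93, Ms4a7 6.46) and 1 at 2 W (Ms4a7 6.75), and it changed no call.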
